A study of Homo sapiens with 6 samples.

Results

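Nicotinamide N-methyltransferase (NNMT) and 8 enzymes that make NAD were described in 6 RNA-seq libraries of MDA-MB-231, an established human triple-negative breast cancer cell line of mesenchymal character. The members are the table rows for NNMT, NAMPT, NMRK1, NMNAT1, NMNAT2, NMNAT3, NAPRT, QPRT and NADSYN1, 9 of 69292 gene IDs. The set was chosen by the counts of NNMT, which are low in the ridaforolimus-resistant libraries, so values of NNMT are a description, with no test. The other enzymes were taken for their place in NAD synthesis. After the filter on low counts 21223 genes were tested, among them 8 of the 9 members; QPRT did not pass.

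The libraries form 3 groups of 2. Ridaforolimus-resistant cells (DRRIDA) had been kept in 30 µM ridaforolimus and everolimus-resistant cells (DREVE) in 20 µM everolimus, over months and until RNA was taken. Parental cells (WT) had no drug by the protocol, while a label field gives them DMSO. All groups carry the same cell line background, and both drugs are rapamycin analogs that inhibit mTOR. Each resistant state was sampled in 1 derivative, so resistance, the presence of the drug, its dose and drift in culture cannot be told apart. Nothing in the labels says that the replicates came from separate cultures, and the p-values measure only the spread between these libraries, which may be technical. In bulk RNA, fewer cells with a transcript and less transcript per cell cannot be told apart.

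NAD is built from several precursors. In the salvage route, NAMPT joins nicotinamide to phosphoribose and makes nicotinamide mononucleotide (NMN), the rate-limiting step in most mammalian cells, and NMRK1 makes NMN from nicotinamide riboside. NMNAT enzymes add the adenylyl group. NAPRT opens the Preiss-Handler route from nicotinic acid, QPRT the route from tryptophan through quinolinate, and NADSYN1 amidates the product of both to NAD. NNMT takes nicotinamide out of salvage by methylating it with S-adenosylmethionine, and its expression is known to be high in mesenchymal-like cancer cells.

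Total counts were 13134567 and 13451139 in ridaforolimus-resistant, 13141320 and 15556246 in everolimus-resistant and 13512908 and 14524155 in parental libraries. Values are counts scaled to the TMM-adjusted library size (CPM), as mean ± SD over 2 libraries, and fold changes are log2 values ± standard error. A gene was called at a Benjamini-Hochberg adjusted p under 0.05 over all 21223 genes in edgeR's quasi-likelihood test. The median log2 fold change of all tested genes was 0.01 for ridaforolimus-resistant minus parental, 0.02 for everolimus-resistant minus parental and -0.02 for ridaforolimus-resistant minus everolimus-resistant libraries. Of 7 markers of mesenchymal-like breast cancer lines, 6 averaged at least 1 CPM, all but SPARC; their summed level was 5180 and 9221 CPM in ridaforolimus-resistant, 4967 and 5936 CPM in everolimus-resistant and 3873 and 3663 CPM in parental libraries. Among 10 luminal or epithelial markers, 7 averaged at least 1 CPM, with KRT8 the highest, and ESR1, PGR and CDH1 were under 1 CPM. Their sum was 542 and 578 CPM in ridaforolimus-resistant, 571 and 739 CPM in everolimus-resistant and 756 and 678 CPM in parental libraries, lower in the ridaforolimus-resistant than in the parental pair. Of the 7, KRT8, KRT18, EPCAM and GATA3 were lower in that pair than in the parental one, and ERBB2 and FOXA1 overlapped. KRT19 went the other way, with 85.7 and 118 CPM in ridaforolimus-resistant and 75.6 and 69.2 CPM in parental libraries. Of 9 fibroblast markers only COL1A1 averaged at least 1 CPM, and LUM was at 0 in all 6 libraries. The fibroblast sum was 7.62 and 16.6 CPM in ridaforolimus-resistant, 6.52 and 8.66 CPM in everolimus-resistant and 10.5 and 12 CPM in parental libraries, so the ranges of the ridaforolimus-resistant and parental groups overlap. Of the mesenchymal markers FN1 had the highest mean CPM. Its values were 1204 and 5286 CPM in ridaforolimus-resistant, 2827 and 2346 CPM in everolimus-resistant and 1363 and 1081 CPM in parental libraries. MSN had 1436 and 1616, 362 and 589, and 780 and 685 CPM in the same groups. Of the 6 at 1 CPM or more, VIM, CD44 and MSN were higher in the ridaforolimus-resistant than in the parental pair. So were 25.1% of all tested genes. AXL, CAV1 and FN1 overlapped there. Against parental libraries, VIM and FN1 were higher in everolimus-resistant ones (20.6% of all genes), MSN was lower (20.5%) and the others overlapped. The part of these markers in the values below was not tested.

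NNMT (ENSG00000166741; GRCh38 chr11:114257787-114313285, plus strand) had 63 and 171 counts, or 4.80 and 12.5 CPM, in ridaforolimus-resistant libraries. Everolimus-resistant libraries had 153 and 80.8 CPM (2107 and 1223 counts). Parental libraries had 124 and 164 CPM (1626 and 2332 counts). Both ridaforolimus-resistant libraries lay below the other 4, whose groups overlapped each other. The group means were 8.65 ± 5.44 CPM in ridaforolimus-resistant, 117 ± 50.8 CPM in everolimus-resistant and 144 ± 28.3 CPM in parental cells (SD, n = 2 each). The ridaforolimus-resistant mean was 16.7-fold below the parental and 13.5-fold below the everolimus-resistant mean.

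On the log2 scale NNMT was -4.06 ± 0.49 for ridaforolimus-resistant minus parental, -0.31 ± 0.42 for everolimus-resistant minus parental and -3.75 ± 0.48 for ridaforolimus-resistant minus everolimus-resistant libraries. Among the 10300 genes that averaged at least 10 CPM, the ridaforolimus-resistant minus parental value of NNMT was 3rd from the lowest. Of all 21223 tested genes, also those under 10 CPM, 1.81% had a value at or below -1.5 in that comparison. That cut is milder than the value of NNMT, so the share does not show how rare a fall of its size is. Ranked by CPM among the tested genes, NNMT stood at 12123 and 9644 in ridaforolimus-resistant, 1291 and 3198 in everolimus-resistant and 1850 and 1261 in parental libraries. It was thus an abundant transcript in 4 libraries and a mid-ranked one in the ridaforolimus-resistant pair. Without ridaforolimus-resistant replicate 2, the higher of its pair, the log2 value was -4.90, and over all single libraries left out it stayed between -4.90 and -3.54. The everolimus-resistant minus parental value ran between -0.83 and 0.07, the upper end without everolimus-resistant replicate 2. An antisense transcript that overlaps NNMT (ENSG00000256947) had 0 and 2 counts in ridaforolimus-resistant, 9 and 3 in everolimus-resistant and 7 and 2 in parental libraries.

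**Figure D1:**
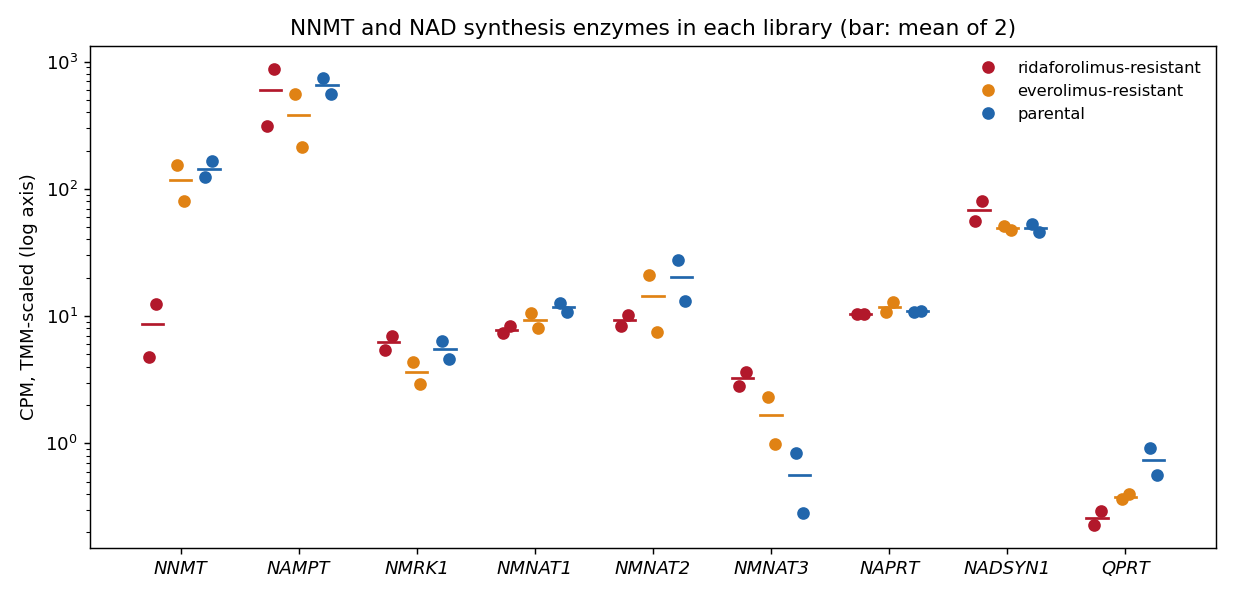
CPM (log axis) of NNMT and the 8 NAD synthesis enzymes in each library, with 1 point per library and a short line at the mean of 2, for ridaforolimus-resistant (red), everolimus-resistant (orange) and parental (blue) cells. The ridaforolimus-resistant NNMT points, 4.80 and 12.5 CPM, lie apart from the other 4 points, while NMNAT3 has its highest points, 2.82 and 3.65 CPM, in that group.

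edgeR called none of the 7 other tested enzymes in any comparison. In ridaforolimus-resistant minus parental libraries edgeR called 0 of 7, where it called 0.32% of all tested genes. Of the 7, 1 had an unadjusted p under 0.05 against 14.5% of all genes, limma-voom called 0 and DESeq2 called 1, NMNAT3. NMNAT3 was also the gene with an unadjusted p under 0.05 in both comparisons with parental cells. It passed the filter on low counts only through its higher groups, so its p-values here are only a description. In everolimus-resistant minus parental libraries 0 of 7 were called, where 0.00471% of all genes were, and 1 had an unadjusted p under 0.05 against 8.79%. In ridaforolimus-resistant minus everolimus-resistant libraries 0 of 7 were called against 0.744% of all genes, and 0 had an unadjusted p under 0.05 against 14.1%. DESeq2 and limma-voom called 0 in the everolimus-resistant minus parental and the direct comparison. Of all 21223 genes, DESeq2 called 574 in ridaforolimus-resistant minus parental, 150 in everolimus-resistant minus parental and 657 in ridaforolimus-resistant minus everolimus-resistant libraries. In that order limma-voom called 72, 1 and 113. The median of the 7 log2 fold changes was -0.08 for ridaforolimus-resistant minus parental, -0.33 for everolimus-resistant minus parental and 0.47 for ridaforolimus-resistant minus everolimus-resistant libraries. Below 0 were 4, 5 and 3 of them in these comparisons, against 48.7%, 47.6% and 51.7% of all tested genes. The comparisons share libraries in pairs and are not independent.

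NAMPT (ENSG00000105835; chr7:106248285-106286326, minus strand), the entry to salvage, was the most abundant member per kb of exon, with a wide spread within the resistant groups. It had 311 and 879 CPM in ridaforolimus-resistant, 552 and 213 CPM in everolimus-resistant and 744 and 557 CPM in parental libraries. The ridaforolimus-resistant libraries held the highest value and the next to lowest of the 6, on both sides of the parental pair, and both everolimus-resistant libraries lay below the parental ones. The means were 595 ± 402, 383 ± 239 and 650 ± 132 CPM in ridaforolimus-resistant, everolimus-resistant and parental cells (SD, n = 2 each). Its log2 fold change was -0.13 ± 0.53 for ridaforolimus-resistant minus parental (95% interval -1.35 to 1.09, adjusted p = 0.942). It was -0.77 ± 0.54 for everolimus-resistant minus parental (-2.0 to 0.47, adjusted p = 0.731) and 0.64 ± 0.54 for ridaforolimus-resistant minus everolimus-resistant libraries (-0.59 to 1.86, adjusted p = 0.646). These intervals reach beyond 1 log2 unit on at least one side, and left-out single libraries turned the sign of the first and the third, to 0.43 without ridaforolimus-resistant replicate 1 and to -0.28 without ridaforolimus-resistant replicate 2. The first also turned without parental replicate 1, to 0.08. Processed copies of NAMPT could share reads; of 3 copies NAMPTP1 had the most, 2 to 18 counts per library.

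NMRK1 (ENSG00000106733; chr9:75060573-75088217, minus strand), the nicotinamide riboside kinase, had 5.41 and 7.01 CPM in ridaforolimus-resistant, 4.35 and 2.91 CPM in everolimus-resistant and 6.42 and 4.58 CPM in parental libraries. Both everolimus-resistant values lay below those of the other groups, which overlapped. The log2 fold change was 0.78 ± 0.35 for ridaforolimus-resistant minus everolimus-resistant (95% interval -0.02 to 1.58, adjusted p = 0.369), -0.60 ± 0.35 for everolimus-resistant minus parental (adjusted p = 0.667) and 0.18 ± 0.34 for ridaforolimus-resistant minus parental libraries (adjusted p = 0.853). None passed the threshold.

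The 3 NMNAT genes encode the enzymes of the step that all routes share, in different compartments: NMNAT1 in the nucleus, NMNAT2 at the Golgi and in the cytosol, best known as a survival factor of axons, and NMNAT3 mainly in mitochondria. Their estimates pointed in different directions in ridaforolimus-resistant minus parental libraries, below 0 for NMNAT1 and NMNAT2 and above 0 for NMNAT3. The promoters of NMNAT2 and NMNAT3, which had the lowest and the highest of these estimates among the 7 enzymes, are shown as the 250 bases before the start (RefSeq, GRCh38.p14, minus strand, 5′ to 3′; NMNAT2 chr1:183418381-183418630, NMNAT3 chr3:139677973-139678222). Capitals mark a match to the SMAD-type letters CAGAC on either strand.
NMNAT2: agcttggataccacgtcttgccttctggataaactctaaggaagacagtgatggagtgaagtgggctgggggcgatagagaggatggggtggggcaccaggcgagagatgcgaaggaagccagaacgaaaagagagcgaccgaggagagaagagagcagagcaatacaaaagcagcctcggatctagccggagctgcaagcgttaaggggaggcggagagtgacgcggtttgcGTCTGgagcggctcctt
NMNAT3: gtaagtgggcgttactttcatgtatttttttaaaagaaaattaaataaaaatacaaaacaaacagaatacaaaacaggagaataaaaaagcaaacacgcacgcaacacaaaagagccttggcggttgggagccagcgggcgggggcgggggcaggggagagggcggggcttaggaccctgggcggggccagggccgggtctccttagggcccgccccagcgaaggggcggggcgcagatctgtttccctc

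Each of these genes has a further window in the RefSeq table. The NMNAT2 stretch holds 15 CpG dinucleotides at 56.8% G and C, and the NMNAT3 stretch 14 at 54.8%. Windows of 300 bases, the 250 above with 50 bases after the start, were searched on both strands for 8 sets of letters. These were TTCNNNGAA (STAT), TTGCNNAA (CEBP), CAGAC (SMAD), TGACNNNGC (antioxidant element), TGANTCA (AP-1), CACGTG (E-box), TATAAA (a core promoter box) and the HNF1 motif. In the windows shown, NMNAT2 held CAGAC, as GTCTG on the strand printed, and NMNAT3 held CAGAC and TGACNNNGC, both in the 50 bases after the start. The further window of NMNAT2 held TTCNNNGAA and CAGAC, and that of NMNAT3 held none of the 8. Of 35116 RefSeq windows of this length, 45.26% held CAGAC and 13.35% TGACNNNGC. The shares were 7.66% for STAT, 10.46% for CEBP, 7.71% for AP-1, 7.26% for the E-box, 11.53% for TATAAA and 0.01% for HNF1. A match is only a match of letters. Of the 9 members 6 had a window in the table: NAMPT, NMNAT1, NMNAT2, NMNAT3, QPRT and NADSYN1.

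NMNAT1 (ENSG00000173614; chr1:9943428-9985501, plus strand) had 7.32 and 8.33 CPM in ridaforolimus-resistant, 10.6 and 8.13 CPM in everolimus-resistant and 12.7 and 10.8 CPM in parental libraries. Both ridaforolimus-resistant and both everolimus-resistant values lay below the parental pair, and the resistant groups overlapped. The log2 fold change was -0.58 ± 0.27 for ridaforolimus-resistant minus parental (95% interval -1.19 to 0.03, adjusted p = 0.361), -0.33 ± 0.26 for everolimus-resistant minus parental (adjusted p = 0.765) and -0.26 ± 0.27 for the direct comparison (adjusted p = 0.723).

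NMNAT2 (ENSG00000157064; chr1:183248237-183418602, minus strand) had 8.31 and 10.2 CPM in ridaforolimus-resistant, 21.2 and 7.47 CPM in everolimus-resistant and 27.4 and 13 CPM in parental libraries. The ridaforolimus-resistant pair lay below the parental pair, but the parental libraries themselves differed by about as much. Its log2 fold change was -1.13 ± 0.51 for ridaforolimus-resistant minus parental (95% interval -2.30 to 0.04, adjusted p = 0.358), -0.50 ± 0.50 for everolimus-resistant minus parental (adjusted p = 0.822) and -0.63 ± 0.51 for the direct comparison (adjusted p = 0.634). Without the filter on low counts, the first had an adjusted p of 0.0127 in edgeR. It was the only setting tried that called NMNAT2.

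NMNAT3 (ENSG00000163864; chr3:139560180-139678017, minus strand) was scarce. It had 37 and 50 counts in ridaforolimus-resistant, 32 and 15 in everolimus-resistant and 11 and 4 in parental libraries, which is 2.82 and 3.65 CPM, 2.32 and 0.992 CPM, and 0.840 and 0.282 CPM in the same groups. The 3 groups do not overlap. The means were 3.24 ± 0.589 CPM in ridaforolimus-resistant, 1.65 ± 0.938 CPM in everolimus-resistant and 0.561 ± 0.395 CPM in parental cells (SD, n = 2 each), which puts the ridaforolimus-resistant mean at 5.77 times and the everolimus-resistant mean at 2.95 times the parental one. In edgeR the log2 fold change was 2.53 ± 0.61 for ridaforolimus-resistant minus parental (95% interval 1.12 to 3.93, unadjusted p = 0.00309, adjusted p = 0.142) and 1.55 ± 0.63 for everolimus-resistant minus parental (0.10 to 3.0, unadjusted p = 0.0386, adjusted p = 0.541), higher than parental in 2 of 2 libraries each. Neither passed the threshold. It was 0.97 ± 0.54 for ridaforolimus-resistant minus everolimus-resistant libraries (-0.26 to 2.21, adjusted p = 0.470). DESeq2 gave the ridaforolimus-resistant minus parental difference an adjusted p of 0.0238, and edgeR without the filter on low counts 0.000172, whereas limma-voom gave 0.162. NMNAT3 passed the filter only through its higher groups, so its p-values in the filtered fits are only a description. The fit without the filter called 1195 of 40833 genes, against 68 of 21223 in the main fit. Its value for NMNAT3 is taken as a description as well. With single libraries left out, the ridaforolimus-resistant minus parental log2 fold change of NMNAT3 ran between 1.93 and 3.47. It averaged too few reads for the stricter filter. COPB2-DT overlaps it on the opposite strand, with 89 and 104 counts in ridaforolimus-resistant, 100 and 50 in everolimus-resistant and 100 and 47 in parental libraries. Those counts do not follow the order of NMNAT3, but with an unknown strand setting the reads of the pair cannot be told apart.

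NAPRT (ENSG00000147813; chr8:143574785-143578649, minus strand), the entry enzyme of the Preiss-Handler route, had the narrowest range of the members. It had 10.3 and 10.3 CPM in ridaforolimus-resistant, 10.8 and 12.9 CPM in everolimus-resistant and 10.8 and 11 CPM in parental libraries. Its log2 fold change was -0.08 ± 0.24 for ridaforolimus-resistant minus parental (95% interval -0.62 to 0.46, adjusted p = 0.911), 0.12 ± 0.24 for everolimus-resistant minus parental (-0.42 to 0.66, adjusted p = 0.921) and -0.20 ± 0.24 for the direct comparison (-0.74 to 0.34, adjusted p = 0.757). In each comparison the interval lay within 1 log2 unit of 0. Opposite-strand transcripts overlap it, the larger with 30 to 65 counts per library.

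NADSYN1 (ENSG00000172890; chr11:71453109-71524107, plus strand), which completes NAD from the acid precursors, had 55.4 and 80.2 CPM in ridaforolimus-resistant, 50.8 and 47.1 CPM in everolimus-resistant and 52.9 and 45.9 CPM in parental libraries. The ridaforolimus-resistant pair lay above the other 4, with 1 library close to them. The log2 fold change was 0.46 ± 0.22 for ridaforolimus-resistant minus parental (95% interval -0.05 to 0.97, adjusted p = 0.390), 0.47 ± 0.22 for ridaforolimus-resistant minus everolimus-resistant (adjusted p = 0.397) and -0.01 ± 0.22 for everolimus-resistant minus parental libraries (adjusted p = 0.995). NADSYN1 and NNMT lie on the same chromosome, far apart.

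QPRT (ENSG00000103485; chr16:29679008-29698699, plus strand), which draws on the tryptophan route, was close to undetected. It had 3 and 4 counts in ridaforolimus-resistant, 5 and 6 in everolimus-resistant and 12 and 8 in parental libraries, or 0.260 ± 0.0449, 0.379 ± 0.0243 and 0.740 ± 0.250 CPM in these groups (SD, n = 2 each). The groups do not overlap, but at this depth a change of this size rests on a few reads. With no filter on low counts, its ridaforolimus-resistant minus parental log2 fold change was -1.48 ± 0.80 (edgeR, adjusted p = 0.507).

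**Figure D2:**
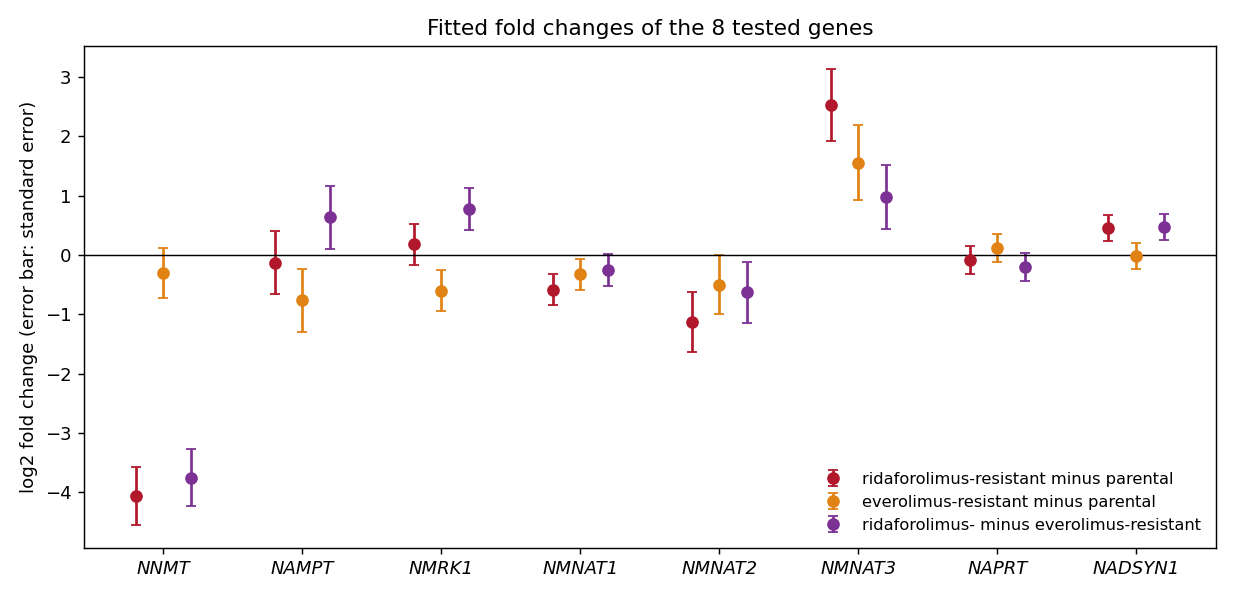
Log2 fold changes of the 8 tested genes (y axis, error bars are standard errors) for ridaforolimus-resistant minus parental (red), everolimus-resistant minus parental (orange) and ridaforolimus-resistant minus everolimus-resistant libraries (purple). NNMT lies at -4.06 and -3.75 in the comparisons that involve the ridaforolimus-resistant cells, NMNAT3 at 2.53 against parental, and the other 6 genes between -1.13 and 0.78.

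Counted over the 7 tested enzymes without NNMT, groups that do not overlap were common, as they were over all genes. In ridaforolimus-resistant against parental libraries 5 of 7 did not overlap, where 49.4% of all tested genes did not. NMNAT3 and NADSYN1 were higher, as were 25.1% of all genes, and NMNAT1, NMNAT2 and NAPRT lower, as were 24.3%. In everolimus-resistant against parental libraries 4 of 7 did not overlap, against 41.1% of all genes, with NMNAT3 higher (20.6% of all genes) and NAMPT, NMNAT1 and NMRK1 lower (20.5%). Between ridaforolimus-resistant and everolimus-resistant libraries 4 of 7 did not overlap, against 41.2% of all genes, with NMNAT3, NMRK1 and NADSYN1 higher (20.9% of all genes) and NAPRT lower (20.4%). With so few members, these shares are a description.

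Levels of different members were compared per kilobase of their exons (GENCODE 29), as CPM per kb. In ridaforolimus-resistant libraries the order was NAMPT at 65.7, NADSYN1 at 4.17, NAPRT at 3.34, NNMT at 2.96, NMNAT1 at 1.70, NMRK1 at 1.61, NMNAT2 at 1.29, NMNAT3 at 0.249 and QPRT at 0.0715 CPM per kb. NNMT, at 2.96 ± 1.86 CPM per kb, was within its own spread of NAPRT, NADSYN1, NMNAT1, NMRK1 and NMNAT2 there. In everolimus-resistant libraries NAMPT at 42.3 ± 26.4 and NNMT at 40.0 ± 17.4 CPM per kb did not differ beyond their spread, and the next, NAPRT, stood at 3.85 CPM per kb. In parental libraries NAMPT stood at 71.9 ± 14.6 and NNMT at 49.4 ± 9.70 CPM per kb (SD, n = 2), followed by NAPRT at 3.53, NADSYN1 at 3.04, NMNAT2 at 2.82, NMNAT1 at 2.54, NMRK1 at 1.42, QPRT at 0.203 and NMNAT3 at 0.0432 CPM per kb. Among these, NMNAT2 at 2.82 ± 1.42 overlapped NAPRT, NADSYN1, NMNAT1 and NMRK1. In everolimus-resistant replicate 2 NNMT stood above NAMPT, at 27.7 against 23.6 CPM per kb. NNMT thus came first or second in every everolimus-resistant and parental library. The place of NADSYN1 depends on the length used: over its longest transcript its mean over all libraries was 15.3 CPM per kb, against 3.41 over all exons.

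The rest of NAD and methyl-donor metabolism was read from 6 lists with 87 genes, 71 of them tested. For the counts below, DESeq2 called 574, 150 and 657 of all 21223 genes in ridaforolimus-resistant minus parental, everolimus-resistant minus parental and the direct comparison. In that order limma-voom called 72, 1 and 113. In ridaforolimus-resistant minus parental libraries edgeR called 0 of the 71, against 0.32% of all genes; 11 had an unadjusted p under 0.05, against 14.5% of all genes, and DESeq2 called 1 and limma-voom 0. In everolimus-resistant minus parental libraries it called 0, against 0.00471% of all genes (7 unadjusted, against 8.79%; DESeq2 and limma-voom 0). In ridaforolimus-resistant minus everolimus-resistant libraries it called 1, lower, against 0.273% of all tested genes called lower (12 unadjusted, against 14.1%; DESeq2 3 and limma-voom 1). That gene was PARP10, a mono-ADP-ribosyltransferase that uses NAD. It had 1.30 and 3.14 CPM in ridaforolimus-resistant, 14.3 and 13.7 CPM in everolimus-resistant and 5.81 and 6.55 CPM in parental libraries. Its parental libraries lay between the resistant groups, and no groups overlapped. The log2 fold change was -2.65 ± 0.40 for ridaforolimus-resistant minus everolimus-resistant (adjusted p = 0.0360), -1.47 ± 0.40 for ridaforolimus-resistant minus parental (adjusted p = 0.174) and 1.18 ± 0.37 for everolimus-resistant minus parental libraries (adjusted p = 0.483). The call was lost in 5 of 6 fits that each left out 1 library, with adjusted p between 0.0538 and 0.0866, and held at 0.0484 without ridaforolimus-resistant replicate 2. It was also lost in edgeR with a replicate block (adjusted p = 0.0642), with a filter at 5 CPM and in a fit of these 2 groups alone.

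Among NAD consumers, 24 of 25 genes were tested, sirtuins, PARP enzymes, tankyrases and the NAD glycohydrolases. The median log2 fold change was 0.13 for ridaforolimus-resistant minus parental, -0.00 for everolimus-resistant minus parental and -0.04 for ridaforolimus-resistant minus everolimus-resistant libraries. The highest by CPM, which does not correct for gene length, were PARP4 at a mean of 211, PARP1, the main DNA damage-activated enzyme, at 210 and TNKS2, a tankyrase, at 144 CPM over all libraries. Of the kynurenine route, which makes quinolinate from tryptophan, 7 of 12 genes were tested, with medians of -0.06, 0.09 and 0.01 in the same order of comparisons. GOT2 at 157, AFMID at 31.0 and KYAT3 at 29.7 CPM were its highest genes, and GOT2 serves other routes as well. IDO1 and IDO2, which can open this route, had 0 counts in all libraries.

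Genes that form NADP or that handle or carry precursors gave 14 of 17 tested and medians of -0.03, -0.15 and 0.08 in that order of comparisons. NT5E, an ecto-5′-nucleotidase, at 363, NNT, the mitochondrial transhydrogenase, at 102 and NT5C2, a cytosolic nucleotidase, at 63.3 CPM led them. AOX1, an aldehyde oxidase that can oxidise the methylated nicotinamide NNMT makes, was singled out after its values were seen. It had 56.5 and 80.1 CPM in ridaforolimus-resistant, 19.1 and 31.7 CPM in everolimus-resistant and 40.9 and 51.3 CPM in parental libraries, 3 groups that do not overlap. Its log2 fold change was 1.43 ± 0.29 for ridaforolimus-resistant minus everolimus-resistant libraries, which missed the threshold in edgeR (adjusted p = 0.0792) and passed it in DESeq2 (adjusted p = 0.00247).

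The methionine cycle supplies the S-adenosylmethionine that NNMT consumes. Of its 13 genes 11 were tested, with median log2 fold changes of -0.22 for ridaforolimus-resistant minus parental, -0.15 for everolimus-resistant minus parental and 0.03 for the direct comparison. AHCYL1 at 259, MAT2A at 222 and AHCY at 202 CPM led this list. MAT2A, the S-adenosylmethionine synthetase of most non-liver cells, had 181 and 127 CPM in ridaforolimus-resistant, 303 and 259 CPM in everolimus-resistant and 242 and 219 CPM in parental libraries. Its log2 fold change was -0.87 ± 0.23 for ridaforolimus-resistant minus everolimus-resistant (adjusted p = 0.145) and -0.58 ± 0.23 for ridaforolimus-resistant minus parental libraries (adjusted p = 0.301). Neither passed in edgeR, while DESeq2 called the first (adjusted p = 0.0364).

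Other small-molecule methyltransferases gave 8 of 11 tested and medians of -0.24, 0.17 and -0.38 in ridaforolimus-resistant minus parental, everolimus-resistant minus parental and the direct comparison. ICMT at 94.3 and GAMT at 39.5 CPM were among the highest of them, while PNMT and INMT, the closest relatives of NNMT, had 0 to 3 counts per library. Methionine salvage, which recycles the methylthio group left by polyamine synthesis, gave 7 of 9 tested and medians of -0.41, 0.01 and -0.40. SMS at 161, AMD1 at 114 and SRM at 84.8 CPM, all polyamine enzymes, led that list. MTAP, its entry enzyme, had 0 counts in 5 libraries and 1 in an everolimus-resistant one.

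**Figure D3:**
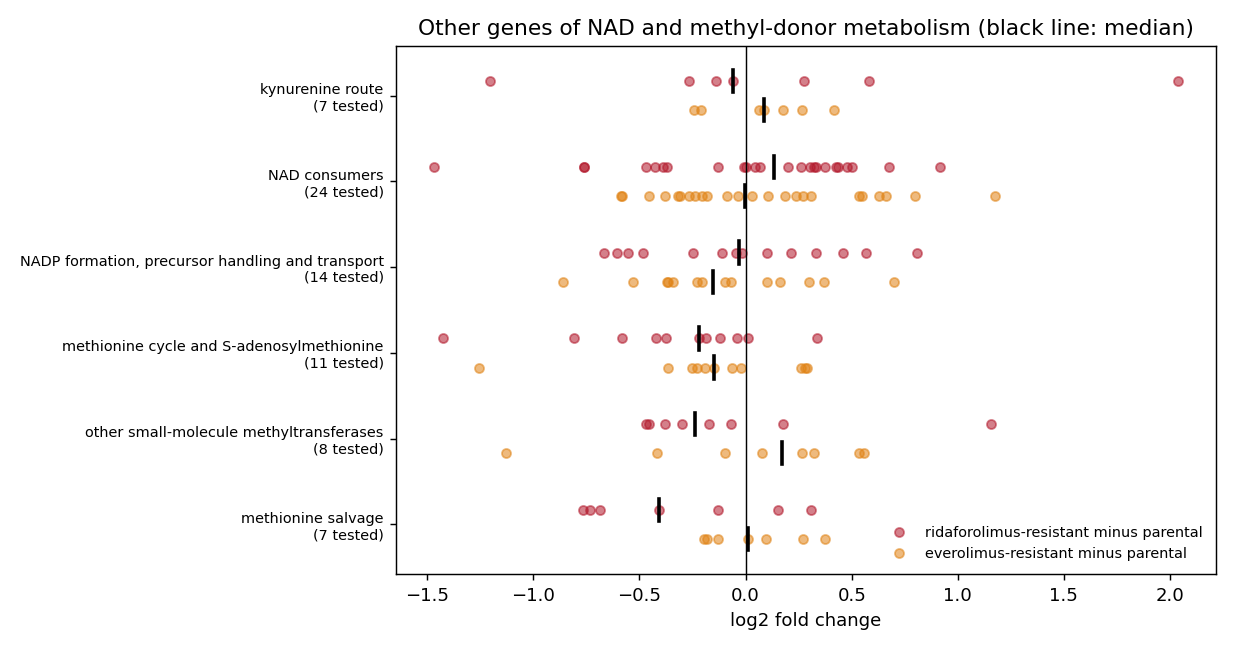
Log2 fold changes (x axis) of every tested gene of the 6 other lists, without the members, with 1 point per gene and a black line at the median. Shown are ridaforolimus-resistant minus parental (red, upper row of each list) and everolimus-resistant minus parental libraries (orange, lower row). The list medians lie between -0.41 and 0.17, and none of the genes shown was called in these comparisons.

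Within 1 Mb of NNMT on either side lie 42 annotated genes, of which 11 were tested and 0 called in any comparison. In ridaforolimus-resistant minus parental libraries 9 of the 11 lay below 0, against 48.7% of all tested genes. The median log2 fold change of the 11 was -0.24 and their range -2.53 to 0.62. Of the 9, USP28 (-0.007 ± 0.21) and RBM7 (-0.010 ± 0.26) were close to 0. REXO2 (-0.18 ± 0.21) and C11orf71 (-0.57 ± 0.65) lay within their standard error of it, so the count of signs is only a description. In everolimus-resistant minus parental libraries 3 of 11 lay below 0, against 47.6% of all genes, with a median of 0.37. In the direct comparison 10 of 11 lay below 0, against 51.7%, with a median of -0.57. The low end of the ridaforolimus-resistant minus parental range came from ENSG00000256195, an antisense gene 47.4 kb from NNMT. It had 3 and 5 counts in ridaforolimus-resistant, 25 and 6 in everolimus-resistant and 24 and 24 in parental libraries (log2 -2.53 ± 0.76, edgeR adjusted p = 0.212). ZBTB16, a zinc finger transcription factor whose gene ends 7.1 kb from NNMT, had 1.98 and 13.8 CPM in ridaforolimus-resistant, 38.8 and 12.8 CPM in everolimus-resistant and 34.6 and 31.0 CPM in parental libraries. Its log2 fold change was -2.05 ± 0.77 for ridaforolimus-resistant minus parental libraries (edgeR, adjusted p = 0.287), with the everolimus-resistant replicate 2 library as low as a ridaforolimus-resistant one. Over 7 other settings of edgeR, DESeq2 and limma-voom, its adjusted p ran from 1.58e-09, in edgeR without the filter on low counts, to 0.449. That unfiltered fit called 1195 of 40833 genes in this comparison, against 68 of 21223 in the main fit. REXO2, 126.1 kb away on the other side, was at -0.18. ZBTB16 and ENSG00000256195 were singled out for their position and value after these were seen.

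**Figure D4:**
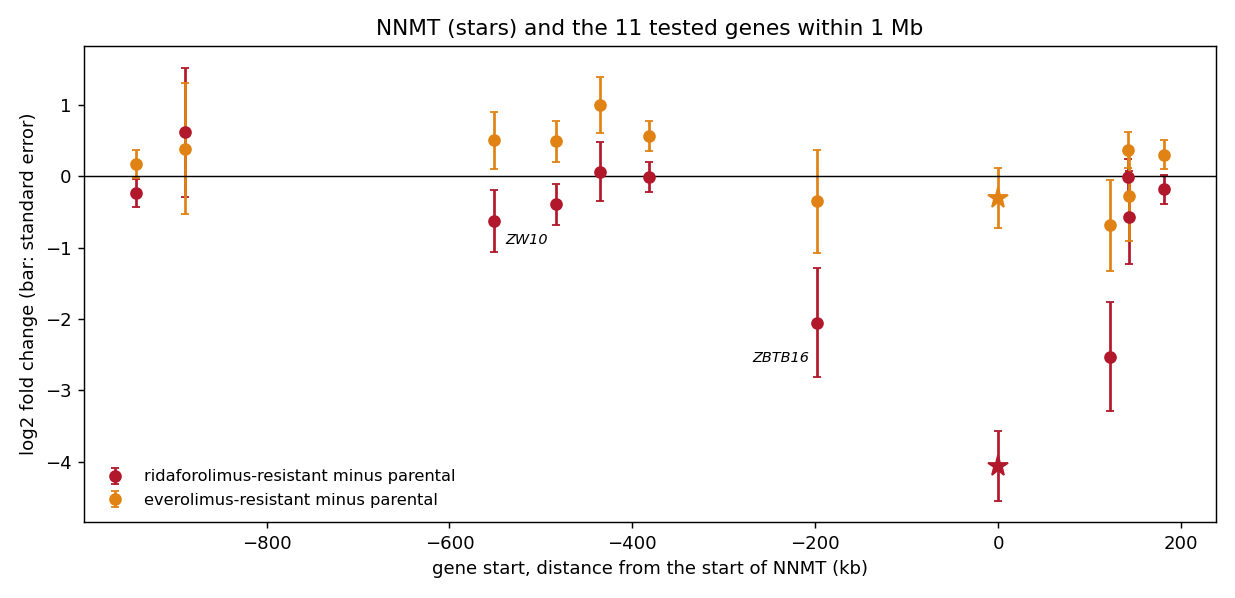
Log2 fold change (y axis, error bars are standard errors) of NNMT (stars, at 0 kb) and the 11 tested genes within 1 Mb, by the distance of their starts from that of NNMT in kb, for ridaforolimus-resistant minus parental (red) and everolimus-resistant minus parental (orange) libraries. NNMT at -4.06 lies below every neighbour, the lowest of which are at -2.53 and -2.05.

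The genes whose levels ran most like those of NNMT over the 6 libraries were ranked by Pearson's r of log2 CPM (prior count 2) among 10983 protein-coding genes that averaged at least 5 CPM. With 6 libraries in 3 groups, r mainly reflects which genes set the ridaforolimus-resistant pair apart, and no p is given. The top 5 were EDIL3 (r = 0.996), ZSWIM7 (0.994), SLC1A7 (0.994), PPFIA1 (0.992) and FKBP5 (0.991), and 67 genes had an r above 0.95. EDIL3, a secreted integrin ligand, had 20.0 and 36.7 CPM in ridaforolimus-resistant, 120 and 87.3 CPM in everolimus-resistant and 99.5 and 112 CPM in parental libraries. SLC1A7, a glutamate transporter, had 0 and 0.146 CPM in ridaforolimus-resistant, 10.4 and 5.62 CPM in everolimus-resistant and 10.2 and 15.6 CPM in parental libraries, so its ridaforolimus-resistant libraries were at or near 0. FKBP5, an immunophilin, had 108 and 158 CPM in ridaforolimus-resistant, 366 and 312 CPM in everolimus-resistant and 321 and 326 CPM in parental libraries. ZSWIM7 and PPFIA1 also had their lowest values in the ridaforolimus-resistant pair, over a narrower range; PPFIA1 ran between 110 and 135 CPM.

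**Figure D5:**
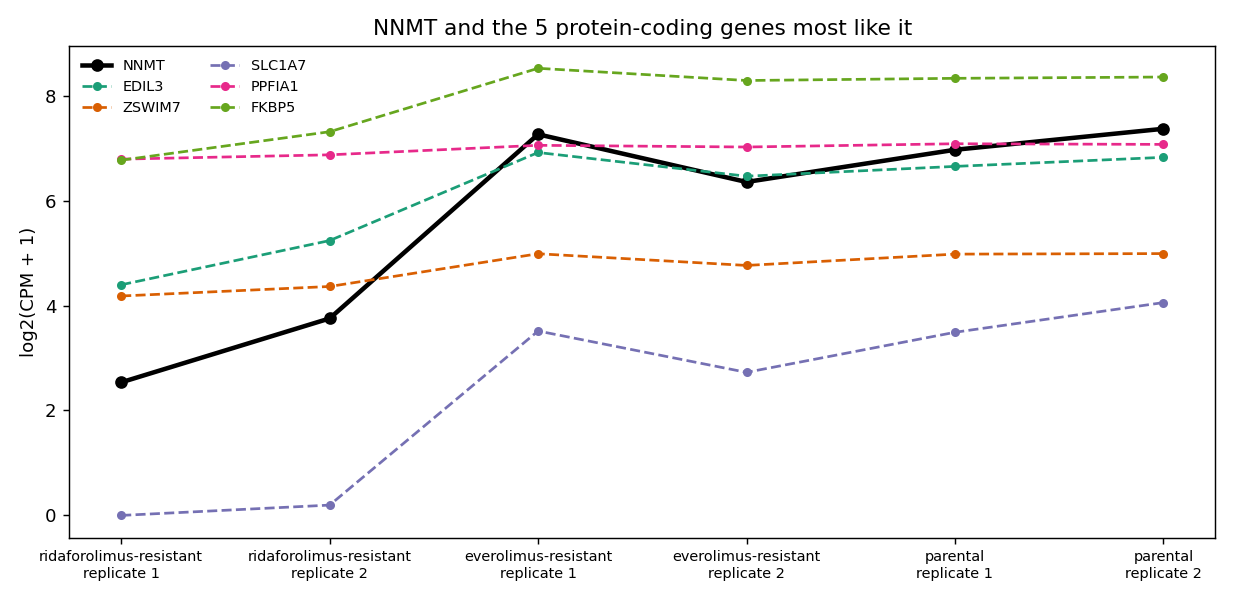
Log2 of CPM + 1 (y axis) in each of the 6 libraries (x axis) for NNMT (black) and the 5 protein-coding genes most correlated with it. The lines share the low ridaforolimus-resistant pair but differ in size, with r between 0.991 and 0.996.

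Among the members, r with NNMT was 0.799 for NMNAT1, 0.604 for NMNAT2, 0.453 for NAPRT, 0.13 for NAMPT, -0.403 for NMRK1 and -0.632 for NADSYN1. NMNAT3 averaged under 5 CPM and was not ranked. In the 6 lists the highest values were 0.912 for NADK, the cytosolic NAD kinase, 0.865 for PARP10 and 0.820 for SIRT2, and the lowest were -0.887 for PARP16, -0.779 for TNKS and -0.642 for AOX1. No salvage enzyme came near the r of the top genes.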

How the data were processed

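Poly(A)-selected RNA was sequenced from libraries made with the TruSeq Stranded mRNA kit, per the labels' protocols. The table the authors deposited holds whole-number counts for Ensembl gene IDs in 6 libraries, not normalised and not pooled. The build GRCh38 (hg38) and the tools STAR 2.7.9a, HTSeq 0.13.5, Trim Galore 0.6.6 and DESeq2 are named per the submitters' processing notes. How strand was set in counting, and the annotation used, is not given in the sources used here, so counts of overlapping genes and near-identical copies are uncertain. Of 69292 IDs, 28459 had no count, 62625 matched a symbol and 58279 a GENCODE 29 position, the source of positions and exon lengths printed.

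Libraries were grouped by their titles. edgeR 4.0.16 in R 4.3.3 (TMM, filterByExpr by group, glmQLFit and glmQLFTest, two-sided) was run on 3 groups of 2 libraries (3 residual degrees of freedom) and adjusted over 21223 genes. Called means an adjusted p under 0.05. DESeq2 1.42.0, limma 3.58.1 (voom), RLE size factors, other filters on low counts, a replicate block, fits of 2 groups and fits without each library were the alternatives. The scripts were tested on simulated data with known changes. Members, lists and the rule for named genes (all members; called genes, the 3 most abundant of each list and the 5 most correlated with NNMT) were chosen with earlier results of these data known. One gene that this rule names is not reported here. Promoter windows came from RefSeq. Between replicates of a group, counts differed by more than sampling noise, so none was merged.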

Additional observations from a re-analysis of the deposited data

Results flagged for a closer look

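PARP10 was past the threshold between the resistant lines: its log2 fold change of ridaforolimus-resistant minus everolimus-resistant libraries was -2.65 ± 0.40 (edgeR, adjusted p = 0.0360), with the ridaforolimus-resistant libraries below and the everolimus-resistant ones above both parental libraries. The call was lost in 5 of 6 fits that left out 1 library (adjusted p between 0.0538 and 0.0866) and with a replicate block (adjusted p = 0.0642). Nor was PARP10 called with a filter at 5 CPM or in a fit of these 2 groups alone. AOX1 and MAT2A also had each resistant group on its own side of the parental pair, AOX1 higher and MAT2A lower in ridaforolimus-resistant libraries. Their differences between the resistant lines, 1.43 for AOX1 (edgeR, adjusted p = 0.0792) and -0.87 for MAT2A (adjusted p = 0.145), did not pass the test. Groups apart from the parental pair were common. Of all tested genes 25.1% were higher and 24.3% lower in ridaforolimus-resistant libraries, and 20.6% and 20.5% in everolimus-resistant ones. The share of all genes with the resistant groups on opposite sides was not counted, so this placement is only a description. The rules for flagging were applied to the genes of the other lists and not to the members, and NNMT was given no test. Of the 7 other tested members, 0 were called between the resistant lines.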

How the results depend on the processing

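Of 309 recomputed member values 291 were kept, 13 turned sign, 3 passed the threshold and 2, both of NNMT, moved. Kept means the same direction and side of the threshold. For NNMT, which had no test, it means the same direction and a move smaller than its SD between replicates. Called members in ridaforolimus-resistant minus parental libraries numbered 0 in edgeR, 1 in DESeq2 and 2 without a filter on low counts. Of the other pathway genes, this comparison called 0 in edgeR, 1 in DESeq2 and 2 without the filter, everolimus-resistant minus parental 0 and 1 without the filter, and the direct comparison 1, against 3 in DESeq2, 4 without the filter, 0 with a filter at 5 CPM, 0 in a fit of these 2 groups and 0 to 1 with a library left out. Over all genes, ridaforolimus-resistant minus parental, everolimus-resistant minus parental and the direct comparison called 68, 1 and 158 genes. In that order DESeq2 called 574, 150 and 657 genes, edgeR without the filter 1195, 493 and 1362 (of 40833 tested), a filter at 5 CPM 63, 0 and 81, fits of 2 groups 127, 0 and 0, and fits without 1 library 1 to 276, 0 to 3 and 19 to 123. With a single library left out, where the lone library is taken to vary like the other groups, the range of log2 fold changes was -1.06 to 0.43 for NAMPT and -0.051 to 0.43 for NMRK1 in ridaforolimus-resistant minus parental libraries. In everolimus-resistant minus parental libraries it was -0.83 to 0.074 for NNMT, -1.43 to 0.13 for NMNAT2, -0.018 to 0.25 for NAPRT, -0.11 to 0.089 for NADSYN1 and -1.36 to 0.23 for ZBTB16, and the filter at 5 CPM put NADSYN1 at 0.014. In the direct comparison it was -0.28 to 1.47 for NAMPT and -1.19 to 0.29 for NMNAT2. The replicate numbers are only names in the labels, and deviations of same-numbered libraries correlated at -0.17 for ridaforolimus-resistant with parental, 0.33 for everolimus-resistant with parental and -0.19 for the resistant pair. A replicate block called 28, 0 and 49 genes in the 3 comparisons, 0 members and 0 other pathway genes, with NMNAT3 at 2.63 (adjusted p = 0.174) and NMNAT2 at -0.97 (adjusted p = 0.405) for ridaforolimus-resistant minus parental libraries. Per kb of the longest transcript, in place of all exons, mean levels were 48.1 for NNMT (30.8), 118 for NAMPT (60.0), 5.60 for NAPRT (3.57), 2.55 for NMNAT1 (2.09), 0.264 for NMNAT3 (0.140), 2.49 for NMRK1 (1.32), 0.196 for QPRT (0.126) and 15.3 for NADSYN1 (3.41), in CPM per kb with the value over all exons in brackets. The shorter length itself makes these higher; why the other settings moved calls was not tested. NMNAT3 gave no value at the stricter filter, and QPRT was fitted without the filter and in 5 of the 6 fits that left out a library, where its ridaforolimus-resistant minus parental value ran between -1.78 and -1.32. At this depth NMNAT3 rests on 4 to 50 and QPRT on 3 to 12 counts per library.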

Other observations

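Around NMNAT3, 39 annotated genes lie within 1 Mb on either side, of which 11 were tested and 0 called. Only the window of NNMT had been planned, and that of NMNAT3 was singled out of the 9 after the values were seen. In ridaforolimus-resistant minus parental libraries 10 of the 11 had a log2 fold change above 0, with a median of 0.49 and a range of -0.05 to 2.73. In ridaforolimus-resistant minus everolimus-resistant libraries 10 of 11 were above 0, with a median of 0.45, and in everolimus-resistant minus parental libraries 8 of 11, with a median of 0.04. Of all tested genes 48.7% lay below 0 in ridaforolimus-resistant minus parental, 51.7% in the direct comparison and 47.6% in everolimus-resistant minus parental libraries. Around the other members, the share of tested genes above 0 in ridaforolimus-resistant minus parental libraries was 2 of 11 for NNMT, 9 of 18 for NAMPT, 3 of 7 for NMRK1, 9 of 24 for NMNAT1, 11 of 16 for NMNAT2, 29 of 76 for NAPRT, 52 of 76 for QPRT and 13 of 21 for NADSYN1. Genes around NAPRT lay above 0 in 19 of 76 cases in the direct comparison.

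KYNU, the kynureninase of the tryptophan route, had 9.30 and 47.0 CPM in ridaforolimus-resistant, 12.5 and 2.18 CPM in everolimus-resistant and 7.95 and 5.78 CPM in parental libraries. Its ridaforolimus-resistant minus parental log2 fold change was 2.04 ± 0.85 (edgeR, adjusted p = 0.330), and 1 library carries most of it. Its highest library was ridaforolimus-resistant replicate 2, also the highest for NAMPT, at 879 CPM, and its lowest was everolimus-resistant replicate 2, also the lowest for NAMPT, at 213 CPM.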
